A study of Mus musculus with 6 samples.

Results

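The immediate-early genes followed here were Fos, Fosb, Jun, Junb, Egr1, Nr4a1, Arc, Npas4, Btg2 and Ier2, chosen by symbol as 10 of the 32285 genes in the count matrices. Each of the 10 had UMIs in every library. Immediate-early genes are transcribed from pre-existing factors within minutes of a stimulus, and their RNAs are short-lived. Fos, Fosb, Jun and Junb encode subunits of the dimeric AP-1 transcription factor, Egr1 and Nr4a1 encode DNA-binding factors of the zinc finger and nuclear receptor kinds, and Npas4 encodes a factor of neurons that follows calcium entry. Arc encodes a synaptic protein that shapes glutamate receptor traffic, Btg2 an antiproliferative regulator of mRNA decay, and Ier2 a nuclear protein whose role is less settled. In brain the group is best known as a record of recent neuronal firing, and it is also induced in glia and vessels by growth factors, cytokines, injury and G protein-coupled receptors, the class to which the receptors for lysophosphatidic acid (LPA), a blood lipid, belong.

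Single-nucleus RNA sequencing compared brains of 3 LPA-injected and 3 vehicle-injected C57BL/6 S-56 mice in a model of hydrocephalus after hemorrhage. The LPA mice received LPA 18:1 and the controls 0.01% BSA, each as 5 µl into the right lateral ventricle at postnatal day 7, and brains without olfactory bulbs and cerebellum were taken 8 days later, at postnatal day 15. All mice shared the ventricular injection and the ages. Nuclei were sorted as NeuN-negative, NeuN being a protein of neuronal nuclei, and prepared with the 10x Genomics 3′ v3 kit. With 1 time point, an induction in the hours after injection was not measured.

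Libraries held 8639 to 12894 barcodes and 48852970 to 65688644 UMIs, unique molecular identifiers that each stand for 1 captured RNA. After filters 57443 nuclei stayed, with library medians of 3732 to 4578 UMIs. Clusters were named from marker lists, the 10 genes having been kept out of the clustering, and a name such as astrocytes means nuclei like astrocytes by these markers. Of the 14 astrocyte markers, 13 were highest in the 10451 astrocyte nuclei, and for the other 11 types between 11 of 12 and all of their markers were highest in the type, except for 13 of 15 in meningeal fibroblasts and in neurons. Despite the gate, 14376 nuclei carried neuronal markers and were kept as neurons. The types also held 3106 oligodendrocyte precursors, 10010 oligodendrocytes, 1882 microglia, 233 macrophages, 1176 endothelial cells, 1260 mural cells, 4559 meningeal fibroblasts, 1095 ependymal cells, 719 choroid plexus epithelial cells and 372 neuroblasts, and 8204 nuclei stayed unnamed.

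A set of barcodes stood apart in all 6 libraries, and it was rich in these genes. Of the barcodes, 235 occurred in each of the 6 libraries, with a median ratio of 1.25 between the highest and the lowest UMI total of the same barcode. Their 1410 entries had a median of 788 UMIs, 97.9% of them exceeded the limit of 1% mitochondrial UMIs, and the 10 genes summed to 2136 CPM (UMIs of a gene per 1000000 UMIs of the same nuclei). The 60927 barcodes found in 1 library had a median of 4296 UMIs and a summed level of 96.1 CPM. Fos alone reached 477 CPM in the shared set and 4.65 CPM in the barcodes of 1 library. The limit on mitochondrial UMIs left 30 of the 1410 entries, and all filters together left 22 in the analysis. Leaving out every barcode found in more than 1 library kept the number of the 10 genes called in each type unchanged.

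Fos and Junb were higher in astrocytes of LPA-injected brains than in those of vehicle-injected brains 8 days after injection, and Nr4a1 was higher by a smaller step. For each type the UMIs of a library were summed, every gene past the count filter was tested with edgeR's quasi-likelihood test, and a gene was called when its Benjamini-Hochberg adjusted p over all genes tested was under 0.05 and its fold change reached 0.25 on the log2 scale in either direction. In astrocytes 9 of the 10 genes passed the count filter, and 3 of them were called higher and none lower, beside 8.14% of all 14635 genes tested that were called in either direction. Replicates are separate libraries of 1 group, and p-values measure the spread between these 6 libraries.

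Fos stood at 18.6, 15.6 and 21.5 CPM in the astrocytes of the 3 LPA libraries and at 4.87, 6.21 and 3.65 CPM in those of the 3 vehicle libraries. The groups did not overlap, and the lowest LPA library lay above the highest vehicle library. The log2 fold change was 1.89 ± 0.203 (SE, adjusted p = 1.09e-05), from 350 Fos UMIs in LPA astrocytes and 73 in vehicle astrocytes. Junb, the AP-1 subunit that can restrain Jun, stood at 12.7, 11.7 and 16.7 CPM with LPA and at 6.01, 4.08 and 3.25 CPM with vehicle, again without overlap. Its log2 fold change was 1.67 ± 0.228 (SE, adjusted p = 0.00012). Nr4a1 stood at 11.6, 10.4 and 10.1 CPM with LPA and at 7.16, 8.16 and 3.65 CPM with vehicle. Vehicle library 3 was the low one, and the log2 fold change of 0.76 ± 0.225 (SE, adjusted p = 0.043) was near the threshold. Without vehicle library 3 it was 0.48 (adjusted p = 0.182), and without LPA library 1, 2 or 3 the adjusted p was 0.118, 0.0974 or 0.091.

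The other genes of the group did not pass in astrocytes. Egr1 lay between 10.4 and 13.3 CPM with LPA and between 8.59 and 8.98 CPM with vehicle, and Ier2 between 2.92 and 3.37 CPM and between 1.83 and 2.29 CPM. Both sets of groups were apart, with log2 fold changes of 0.41 ± 0.168 (SE, adjusted p = 0.157) and 0.59 ± 0.298 (SE, adjusted p = 0.275). Jun, the main partner of Fos in AP-1, overlapped between the groups, at 26.4, 22.2 and 31.4 CPM with LPA and 33.2, 31.8 and 27.2 CPM with vehicle (log2 fold change -0.20 ± 0.131, SE). Btg2 lay at 6.99 to 11.8 CPM against 10.3 to 16.9 CPM. Arc and Npas4, the genes of the group most tied to neurons, had 72 and 58 UMIs over all astrocytes and log2 fold changes of -0.06 ± 0.345 and 0.11 ± 0.394 (SE). Fosb had 5 UMIs in astrocytes and was not tested. The groups were apart for 5 of the 10 genes, each higher with LPA, and overlapped for 5. Of all genes tested in astrocytes, 12.4% were apart with LPA higher and 13.3% with LPA lower. The plot of the members by library in astrocytes shows these values.

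**Figure D1:**
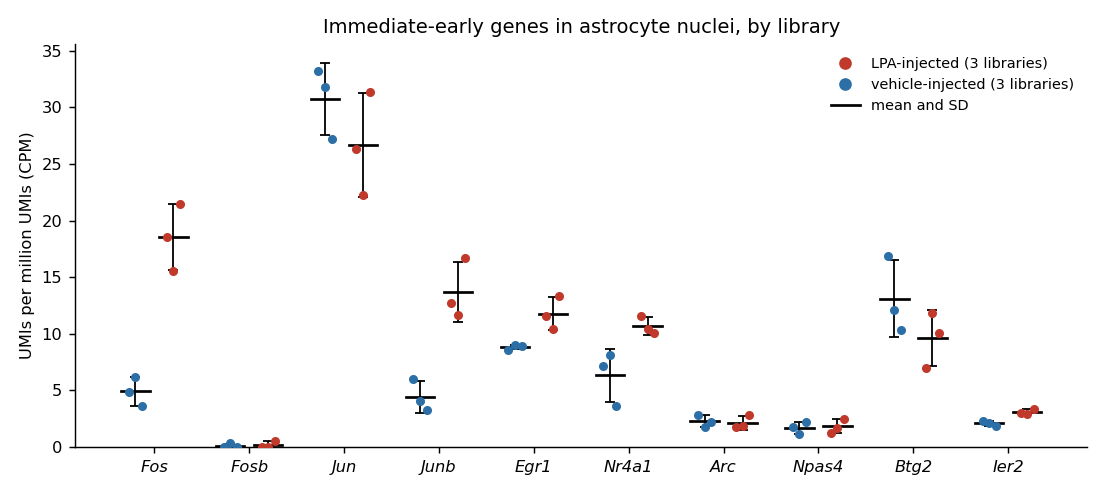
Level of each immediate-early gene in astrocyte nuclei, in CPM of the summed nuclei (linear axis), with 1 point per library (blue, vehicle-injected; red, LPA-injected; 3 each), the mean as a bar and the SD as an error bar. The 3 LPA libraries lie between 15.6 and 21.5 CPM for Fos and the 3 vehicle libraries between 3.65 and 6.21 CPM, whereas the points of Jun, Btg2, Arc and Npas4 overlap.

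The rise of Fos lay in 1 of the 3 large astrocyte clusters. These clusters, fitted one by one after the result in all astrocytes was known, were led by Slc1a2 and Gpc5 (5541 nuclei), by Slc6a11 (2888 nuclei) and by Gfap and C4b (1897 nuclei). Slc1a2 and Slc6a11 encode transporters of glutamate and GABA, Gfap encodes the intermediate filament of fibrous and reactive astrocytes, and C4b encodes a complement component. In the Gfap/C4b cluster Fos stood at 64.0, 54.8 and 73.1 CPM with LPA (95, 89 and 101 UMIs) and at 0, 11.1 and 10.0 CPM with vehicle (0, 6 and 4 UMIs). The log2 fold change was 3.02 ± 0.368 (SE, adjusted p = 5.04e-06), and every LPA library lay far above every vehicle library. A gene passed the count filter with enough UMIs in 3 libraries, whichever their group. In this cluster Fos passed it through the LPA libraries, so the p-value belongs to a gene let in by the group where it is high. Of the 117, 112 and 121 Fos UMIs in the astrocytes of the LPA libraries, 81.2%, 79.5% and 83.5% came from this cluster, which gave 415, 500 and 411 of their nuclei and 115, 246 and 210 of those of the vehicle libraries. The level over all astrocytes thus moved with the number of these nuclei as well as with their Fos level, and the part of the first was not tested.

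Junb in the same cluster stood at 35.0, 30.2 and 53.5 CPM with LPA and at 11, 9.27 and 10.0 CPM with vehicle, a log2 fold change of 2.06 ± 0.391 (SE, adjusted p = 0.000928). Nr4a1 stood at 20.2, 22.2 and 18.8 CPM against 14.7, 5.56 and 5.01 CPM, a log2 fold change of 1.53 ± 0.429 (SE, adjusted p = 0.023). The Nr4a1 counts of the vehicle libraries were 4, 3 and 2 UMIs, and without LPA library 1 or 2 or vehicle library 2 or 3 the adjusted p was 0.0512, 0.0673, 0.185 or 0.137. These 3 were the genes called among the 6 members tested in the cluster, beside 8.99% of its 10475 genes. All 3 passed the count filter there through the LPA libraries. Jun lay at 23.4 to 38.3 CPM with LPA and 31.5 to 35.1 CPM with vehicle, and Egr1 at 16.0 to 27.5 CPM and 13 to 18.4 CPM. For Jun, the dimer partner, the log2 fold change was -0.01 ± 0.276 (SE). DESeq2 called 2 of the 6.

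In the Slc1a2/Gpc5 cluster edgeR called none of the 6 members tested, 1 of which (Btg2) had an unadjusted p under 0.05, DESeq2 called none, and 2.39% of all its genes were called. Fos averaged 5.35 ± 0.596 CPM with LPA and 4.86 ± 1.60 CPM with vehicle (SD, n = 3), a log2 fold change of 0.18 ± 0.312 (SE). In the Slc6a11 cluster none of the 4 members tested was called by edgeR or DESeq2 and none had an unadjusted p under 0.05, with 0.377% of all genes called. Fos and Junb did not pass the count filter in this cluster and were not among the 4. Fos there averaged 2.65 ± 1.66 CPM with LPA and 4.48 ± 1.18 CPM with vehicle (SD, n = 3). An edgeR F test of the cluster by LPA terms, over library by cluster sums, gave an adjusted p of 3.74e-06 for Fos, and 4.88% of the 12868 genes passed it. The LPA effect on Fos was 2.89 ± 0.515 (SE) log2 units larger in the Gfap/C4b cluster than in the Slc1a2/Gpc5 cluster (adjusted p = 4.14e-05). For Junb and Nr4a1 the F test gave adjusted p-values of 0.161 and 0.361, so that a difference among clusters was not shown for them.

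A finer cluster inside the Gfap/C4b cluster, with 1099 nuclei led by Gfap, Arhgef4 and C4b, gave Fos levels of 69.9, 55.7 and 82.9 CPM with LPA and 0, 10.5 and 6.80 CPM with vehicle. The log2 fold changes were 3.42 ± 0.558 (SE, adjusted p = 2.23e-05) for Fos and 2.08 ± 0.556 (SE, adjusted p = 0.0116) for Junb, which were the members called of 5 tested, beside 7.9% of all genes, and DESeq2 called 1 of them. The vehicle libraries held 0, 2 and 1 Fos UMIs and 1, 1 and 3 Junb UMIs there, and without vehicle library 2 the Junb call was lost (adjusted p = 0.13). Both genes passed the count filter there through the LPA libraries. Cluster membership was set on the same nuclei, with C4b among the genes that led it, so these fits describe LPA against vehicle among nuclei placed together. The plot of Fos, Junb and Nr4a1 by cluster shows the contrast.

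**Figure D2:**
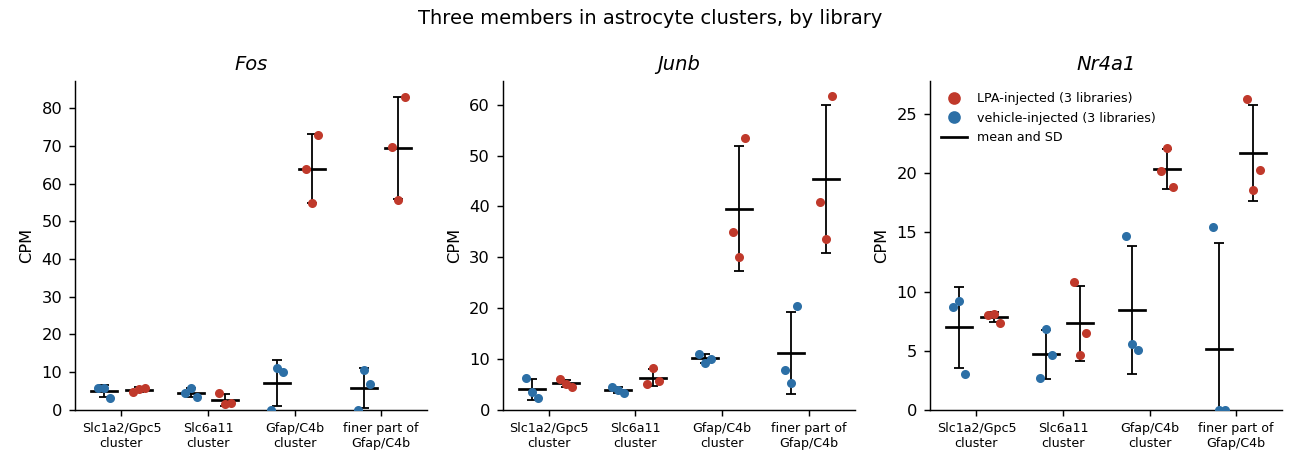
Fos, Junb and Nr4a1 in CPM (linear axes) in the 3 large astrocyte clusters and in the finer part of the Gfap/C4b cluster, with 1 point per library (blue, vehicle-injected; red, LPA-injected), the mean as a bar and the SD as an error bar. For Fos the LPA libraries lie at 54.8 to 73.1 CPM in the Gfap/C4b cluster, and the points of both groups lie below 6 CPM in the Slc1a2/Gpc5 and Slc6a11 clusters.

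Fos UMIs were spread over many nuclei. In the Gfap/C4b cluster 15.9% of the nuclei of LPA library 1 held a Fos UMI (exact 95% binomial interval 12.5% to 19.8%), and 12.6% (9.82% to 15.8%) and 16.5% (13.1% to 20.5%) in libraries 2 and 3. In the vehicle libraries it was 0 of 115 nuclei, with an upper bound of 3.16%, then 1.22% (0.252% to 3.52%) and 0.952% (0.116% to 3.40%). Intervals cover counting error alone. LPA nuclei were deeper, at library medians of 3017 to 3284 UMIs against 1808.5 to 2165. Thinned to 1000 UMIs a nucleus, with 13 LPA and 16 vehicle nuclei of lower depth left out, the shares were 4.61%, 4.62% and 5.46% with LPA and 0%, 0.837% and 0% with vehicle, so the groups stayed apart at equal depth. Over all astrocytes the shares were 3.99% to 5.46% and 0.861% to 1.70%, with at most 6 Fos UMIs in 1 nucleus and 3 in the vehicle libraries. In oligodendrocytes of the same libraries 0.494% to 0.505% of nuclei with LPA and 0.229% to 0.517% with vehicle held a Fos UMI. Their median depths were larger, at 4256.5 to 5914 UMIs. The part of free RNA in any of these shares was not tested.

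**Figure D3:**
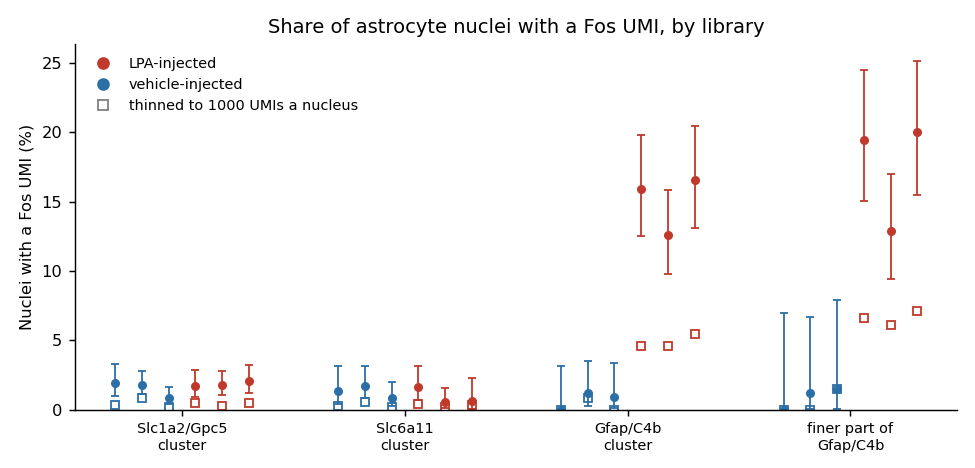
Percent of nuclei with at least 1 Fos UMI in the astrocyte clusters, by library (blue, vehicle-injected; red, LPA-injected), with exact 95% binomial intervals as error bars and open squares for nuclei thinned to 1000 UMIs. In the Gfap/C4b cluster the LPA libraries lie at 12.6% to 16.5% and the vehicle libraries at 0% to 1.22%.

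Some astrocyte nuclei held UMIs of both Fos and Junb. Among astrocyte nuclei with a Fos UMI in the LPA libraries, 22.7%, 15.5% and 27.3% also held a Junb UMI (20, 13 and 24 nuclei). Among those without Fos it was 3.06%, 2.87% and 3.41%. In the vehicle libraries 1 nucleus each held both, 5.88%, 2.94% and 6.25% of the nuclei with Fos. Of the vehicle nuclei without Fos, 1.54%, 1.22% and 0.760% held a Junb UMI, also fewer than of those with Fos. Median depth was 3289.5 to 3663 UMIs in LPA nuclei with Fos and 3248.5 to 3399 UMIs in those without, and the share was not tested. These shares pool the astrocyte clusters. In the LPA libraries the Gfap/C4b cluster gave 81.2%, 79.5% and 83.5% of the Fos UMIs of astrocytes. It gave 65.0%, 58.3% and 78.7% of their Junb UMIs. The part of cluster membership in the shares was not tested.

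Fos, Junb and Nr4a1 are shown by their promoters because they were the members called higher in astrocytes, Nr4a1 near the threshold. The windows, from RefSeq on GRCm38.p6, run from 250 bases before to 50 bases after the RefSeq start of the gene and are printed 5′ to 3′ on the strand of the gene, Fos on the plus strand of chr12:85473640-85473939, Junb on the minus strand of chr8:84978699-84978998 and Nr4a1 on the plus strand of chr15:101266596-101266895. Capitals mark the letters TGACG on either strand (the core of the cyclic AMP response element, to which CREB binds, read as CGTCA where it lies on the other strand), TATAAA (the TATA box) and GCGGGGGCG on either strand (the site of EGR factors).
Fos: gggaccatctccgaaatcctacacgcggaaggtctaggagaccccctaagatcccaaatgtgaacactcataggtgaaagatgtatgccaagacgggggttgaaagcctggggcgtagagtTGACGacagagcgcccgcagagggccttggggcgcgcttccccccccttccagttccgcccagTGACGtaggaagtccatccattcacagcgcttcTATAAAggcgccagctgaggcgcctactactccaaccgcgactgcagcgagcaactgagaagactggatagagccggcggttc
Junb: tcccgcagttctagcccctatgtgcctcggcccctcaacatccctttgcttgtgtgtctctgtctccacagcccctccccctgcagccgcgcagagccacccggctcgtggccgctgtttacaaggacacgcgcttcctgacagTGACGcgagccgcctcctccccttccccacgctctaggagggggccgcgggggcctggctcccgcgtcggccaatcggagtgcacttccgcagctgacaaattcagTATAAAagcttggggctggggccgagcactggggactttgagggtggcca
Nr4a1: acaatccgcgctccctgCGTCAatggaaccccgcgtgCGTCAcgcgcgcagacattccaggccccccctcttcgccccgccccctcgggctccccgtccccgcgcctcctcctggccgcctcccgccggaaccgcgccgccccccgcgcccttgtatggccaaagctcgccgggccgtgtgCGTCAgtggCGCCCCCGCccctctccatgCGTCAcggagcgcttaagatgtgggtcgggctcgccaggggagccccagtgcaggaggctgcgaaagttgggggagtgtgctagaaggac

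The RefSeq start of Nr4a1, at 101266846, lies 12577 bases downstream of the first base of the gene in GENCODE, so its window lies inside the longest GENCODE gene model. Of the 10 members, 7 had a window, with none for Egr1, Arc and Ier2. The letters TGACG were in 6 of the 7 windows (Fos, Fosb, Junb, Nr4a1, Npas4 and Btg2), where 20.8% of all 32851 windows of this length held them, and Nr4a1 held 4 copies. The full element TGACGTCA, which contains TGACG on both strands, was in the window of Btg2 alone, with 1.79% of all windows. TATAAA was in those of Fos, 33 bases before the start, and Junb, at the RefSeq start, with 13.6% of all windows. The RefSeq start of Junb, at 84978748, lies upstream of its start in GENCODE, at 84978718 on the minus strand. TATAAA of Junb thus lies before the GENCODE start. GCGGGGGCG was in those of Fosb and Nr4a1, with 2.91% of all windows. TGANTCA, the site of AP-1, was in none of the 7 (7.81% of all windows), and neither was the CArG box of serum response factor (1.63%). These are matches of letters and carry no measure of binding. Sequence outside the windows was not searched, so a site absent from a window, such as the CArG box or TGANTCA, may lie beyond it. For Egr1, Arc and Ier2 no sequence was searched.

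In the annotation of mm10 (GENCODE M21), Fos lies on chromosome 12 at 85473890 to 85477273 and Nr4a1 on chromosome 15 at 101254269 to 101274795, and neither overlaps another gene. Junb lies on chromosome 8 at 84974484 to 84978718 and overlaps Prdx2 on the other strand, and Jun on chromosome 4 at 95049034 to 95052222 overlaps Junos, its antisense RNA. Fosb lies on chromosome 7 at 19302696 to 19310051, Arc on chromosome 15 at 74669083 to 74672570, Npas4 on chromosome 19 at 4984355 to 4990316, Btg2 on chromosome 1 at 134075170 to 134079120 and Ier2 on chromosome 8 at 84661331 to 84662852, with no gene overlapping them. How reads were assigned by strand is not given in the sources used here, so the values of Junb and Jun could hold reads of the neighbor. Matrices counted introns as well as exons, which matters more for Nr4a1, with 20527 bases, than for Fos, with 3384.

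Outside astrocytes edgeR called none of the 38 pairs of a member and a type that could be tested in 8 types, 5 of which had an unadjusted p under 0.05, and DESeq2 called none. The 5 were Fos in neurons, Btg2 and Junb in microglia, Nr4a1 in meningeal fibroblasts and Npas4 in ependymal cells. The shares of all genes called beside these counts of 0 were 0.229% in oligodendrocyte precursors (3 members tested), 5.02% in oligodendrocytes (7), 9.04% in microglia (3), 0.0597% in endothelial cells (4), 0.181% in mural cells (2), 1.35% in meningeal fibroblasts (5), 4.28% in ependymal cells (4) and 0.0713% in neurons (10). In macrophages, choroid plexus epithelium and neuroblasts no member passed the count filter, and 0.0448%, 0.206% and 0.341% of all genes were called. The plot of fold changes sets the 47 tested pairs side by side.

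**Figure D4:**
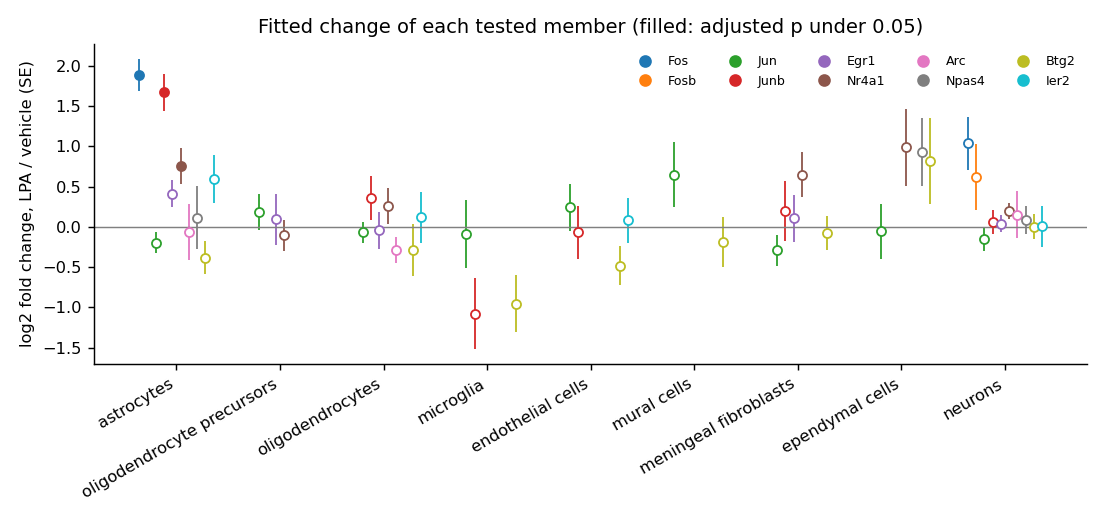
Fitted log2 fold change, LPA-injected against vehicle-injected, of each immediate-early gene in each cell type where it passed the count filter, with the SE as an error bar (3 libraries a group). Filled points have an adjusted p under 0.05 and are Fos, Junb and Nr4a1 in astrocytes, at 1.89, 1.67 and 0.76, and the open points of the other types lie between -1.08 and 1.04.

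In neurons, where the group is best known, all 10 members were tested and the groups overlapped for each, where 4.96% and 7.82% of all genes tested were apart with LPA higher and lower. Fos stood at 3.74, 5.85 and 10.3 CPM with LPA and at 3.67, 2.38 and 3.92 CPM with vehicle, and LPA library 3 was the high one. The log2 fold change was 1.04 ± 0.329 (SE, adjusted p = 0.554), and 0.53 (adjusted p = 0.774) without LPA library 3. That library was also highest among the LPA libraries for all members in neurons except Nr4a1, for which LPA library 2 was highest. Nr4a1 was the most counted member in neurons, with 2966 UMIs, and stood at 34.2 to 42.8 CPM with LPA and 31.0 to 38.8 CPM with vehicle (log2 fold change 0.20 ± 0.104, SE, adjusted p = 0.763). Arc (0.15 ± 0.293), Npas4 (0.08 ± 0.175) and Egr1 (0.04 ± 0.107) had log2 fold changes smaller than their SE.

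In ependymal cells, which line the ventricle into which LPA was injected, the 10 genes summed to 110, 109 and 122 CPM with LPA and to 77.5, 54.9 and 67.1 CPM with vehicle, so that the groups did not overlap. Fos (9.92, 13.2 and 13.2 CPM against 0, 6.46 and 8.39 CPM), Egr1 (12.9, 12 and 18.9 CPM against 5.44, 3.23 and 8.39 CPM) and Npas4 (21.8, 13.2 and 21.7 CPM against 12.2, 6.46 and 8.39 CPM) were each higher in every LPA library. Fos and Egr1, with 5 and 8 UMIs over the vehicle libraries, did not reach the level of the count filter in enough libraries of either group. They were not tested. Npas4 had a log2 fold change of 0.93 ± 0.426 (SE, adjusted p = 0.255) and Nr4a1 one of 0.98 ± 0.483 (SE, adjusted p = 0.304). Both passed the count filter through the LPA libraries. The other 7 members overlapped, Jun at 17.9 to 32.1 CPM against 16.2 to 36.4 CPM. Npas4 was the 1 member apart of the 4 tested, where 11.3% of all genes tested were apart with LPA higher. The limit on mitochondrial UMIs took unequal parts of this type. When types were named without it, 4, 16 and 37 ependymal nuclei of the LPA libraries lay above it and 194, 172 and 220 at or below. In the vehicle libraries 89, 67 and 94 lay above it and 187, 80 and 115 at or below. The part of this loss in the values was not tested.

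Microglia, the resident phagocytes, showed lower values of Btg2 with LPA, at 19.1, 21.5 and 15 CPM against 30.2, 37.0 and 40.2 CPM. The groups were apart, as they were with LPA lower for 10.9% of all genes tested in microglia, with a log2 fold change of -0.95 ± 0.356 (SE, adjusted p = 0.096). Junb stood at 25, 16.8 and 11.5 CPM with LPA and at 0, 41.2 and 72.3 CPM with vehicle, where vehicle library 1, with 0 Junb UMIs, and vehicle library 3, with 9, lay far apart. Its log2 fold change of -1.08 ± 0.439 (SE, adjusted p = 0.135) became -1.43 (adjusted p = 0.0174) without vehicle library 1. Fos had 1, 4 and 6 UMIs in microglia with LPA and 0 in each vehicle library, where 3 UMIs, the number that a count of 0 allows, would be 18.1, 6.17 and 24.1 CPM, so no difference was detectable at this depth. In endothelial cells it had 3 UMIs in each LPA library and 0 in each vehicle library, likewise near the limit.

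Among the remaining types Nr4a1 in meningeal fibroblasts lay at 10.4, 15.6 and 19.0 CPM with LPA and 14.1, 7.52 and 8.81 CPM with vehicle (log2 fold change 0.65 ± 0.28, SE, adjusted p = 0.402). Btg2 in endothelial cells was lower in every LPA library (54.8, 56.3 and 29.8 CPM against 69.5, 65.0 and 61.6 CPM), with a log2 fold change of -0.48 ± 0.245 (SE, adjusted p = 0.797), and 5.36% of all genes tested there were lower in every LPA library. In oligodendrocytes, where 11.5% and 10.7% of all genes tested were apart with LPA higher and lower, the groups overlapped for all 10 genes, and Fos lay at 0.824 to 0.885 CPM with LPA and 0.461 to 0.988 CPM with vehicle. In mural cells all 10 overlapped as well, beside 7.22% and 5.98% of all genes tested that were apart.

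The LPA effect on Junb differed among the 12 types. An edgeR F test of all type by LPA terms, with the library as a term, gave an adjusted p of 0.000263 for Junb, the member that passed of 8 tested, beside 9.63% of the 15136 genes. Against astrocytes, the Junb effect was lower by 1.62 ± 0.271 (SE) log2 units in neurons (adjusted p = 1.31e-05), by 2.69 ± 0.507 in microglia (adjusted p = 0.000105), by 1.71 ± 0.392 in endothelial cells (adjusted p = 0.0205) and by 1.33 ± 0.39 in oligodendrocytes (adjusted p = 0.0394). For Fos the same test gave an adjusted p of 0.169, so a difference of the Fos effect among the types was not shown. Without the filter on low counts the adjusted p for Fos was 0.0369, and without vehicle library 2 it was 0.0508.

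Over the 6 libraries Fos was highest in astrocytes (11.7 ± 7.74 CPM, SD), ahead of ependymal cells (8.53 ± 4.95 CPM) and neurons (4.98 ± 2.84 CPM), and these neighbors were not separated beyond their spread (exact sign-flip permutation p = 0.219 and 0.0938). In the vehicle libraries alone Fos was at 4.91 ± 1.28 CPM in astrocytes and 4.95 ± 4.39 CPM in ependymal cells (SD, n = 3). Jun, Junb, Btg2 and Ier2 were highest in endothelial cells, at 75.3, 40.9, 56.2 and 53.9 CPM. Jun was higher there than in astrocytes (28.7 CPM) and Ier2 than in mural cells (15.7 CPM) in 6 of 6 libraries, while Junb in endothelial cells lay above microglia (27.8 CPM) in 4 of 6. Egr1 (23.4 CPM), Nr4a1 (36.4 CPM) and Fosb (1.41 CPM) were highest in neurons. Nr4a1 was next in oligodendrocyte precursors (23.1 CPM), below neurons in 6 of 6 libraries.

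Arc, the synaptic gene, was highest in oligodendrocytes, at 11.5 ± 2.35 CPM, and lay at 6.25 ± 2.18 CPM in neurons (SD, n = 6), lower in 6 of 6 libraries. It stood at 10.1, 9.74 and 11.1 CPM in oligodendrocytes with LPA and at 16.2, 10.8 and 11.3 CPM with vehicle. Npas4 was highest in ependymal cells (14.0 ± 6.52 CPM), ahead of neuroblasts (11.1 ± 9.43 CPM, from 6 UMIs) and neurons (10.9 ± 2.07 CPM, SD, n = 6). In the vehicle libraries alone the order was another, with 19.6 CPM in neuroblasts, 10.7 CPM in neurons and 9.03 CPM in ependymal cells. Each of the 110 pairs of neighbors in these orders was compared by a two-sided exact sign-flip permutation test over 6 libraries, whose smallest p is 0.03125. It was reached by 8 pairs, and none passed after adjustment over the 110 pairs (smallest adjusted p = 0.43). With 6 libraries a pair could pass only if most of the 110 pairs reached that smallest p. The adjusted test could therefore not separate a few pairs. The heat map of levels by type shows both groups.

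**Figure D5:**
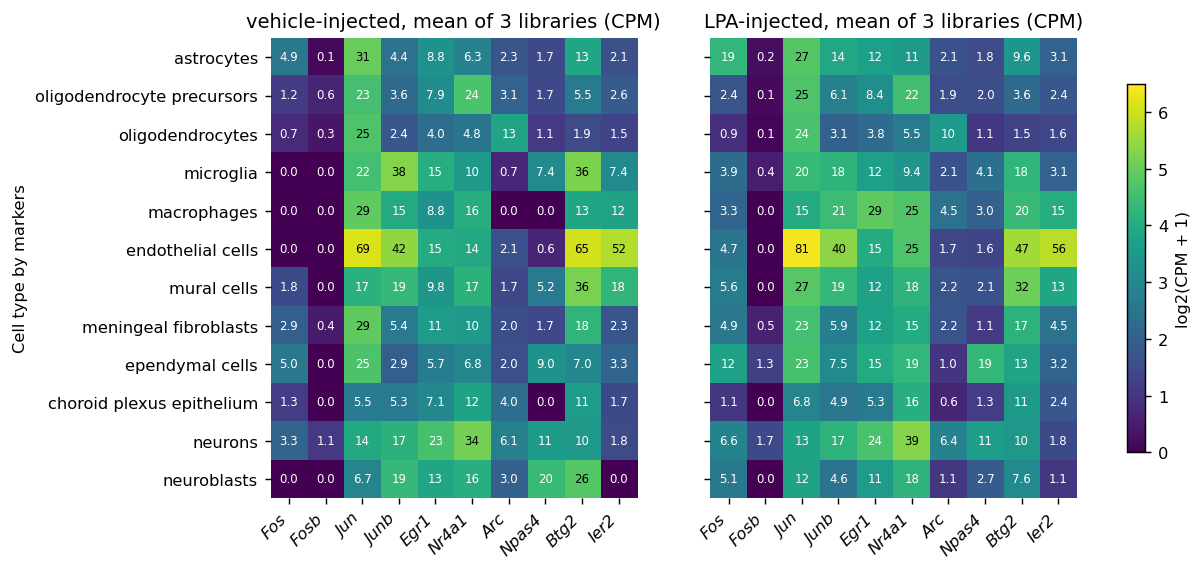
Mean level of each immediate-early gene in each cell type, in CPM as printed in the cells and as log2(CPM + 1) in the color, for the 3 vehicle-injected and the 3 LPA-injected libraries. Fos in astrocytes changes from 4.91 to 18.5 CPM and Junb from 4.45 to 13.7 CPM, and endothelial cells hold the highest Jun, Junb, Btg2 and Ier2 in both panels.

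Of 39 other immediate-early genes on a separate list, 31 could be tested in astrocytes, and 2 rose and 2 fell, beside 8.14% of all genes called in either direction. The median log2 fold change of the 31 was 0.13, beside -0.01 over all genes tested. Ccn1, an extracellular matrix protein induced by serum, rose from 17.7, 15 and 14.6 CPM with vehicle to 42.1, 36.6 and 54.4 CPM with LPA (log2 fold change 1.51 ± 0.151, SE, adjusted p = 5.61e-06). Socs3, an inhibitor of cytokine signaling induced by STAT3, rose from 0.573, 0.653 and 0.406 CPM to 3.49, 2.92 and 5.68 CPM (2.81 ± 0.45, SE, adjusted p = 0.000582). Socs3 passed the count filter through the LPA libraries. Nfkbia, the inhibitor of NF-κB, fell to 32.4, 37.0 and 33.3 CPM from 59.0, 57.6 and 59.0 CPM (-0.76 ± 0.0829, SE, adjusted p = 1.32e-05), and Gadd45g, a stress gene, fell by 0.40 on the log2 scale (adjusted p = 0.00576).

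The rise of Ccn1 also lay in the Gfap/C4b cluster. There it stood at 131, 108 and 162 CPM with LPA and 14.7, 7.41 and 7.52 CPM with vehicle (log2 fold change 3.94 ± 0.314, SE, adjusted p = 1.63e-08). Its vehicle counts were 4, 4 and 3 UMIs, and it passed the count filter there through the LPA libraries. In the Slc1a2/Gpc5 cluster it lay at 17.0 to 20.2 CPM and 15.3 to 17.8 CPM, and the F test among the 3 clusters gave an adjusted p of 2.02e-14. Socs3 had 19, 17 and 23 UMIs in the Gfap/C4b cluster with LPA and 1, 0 and 1 with vehicle (2.98 ± 0.728, SE, adjusted p = 0.00866). Socs3 also passed the count filter there through the LPA libraries. Jund, the AP-1 subunit that is made without a stimulus, was lower there, at 18.2, 25.8 and 19.5 CPM against 40.4, 40.8 and 60.1 CPM (-1.05 ± 0.263, SE, adjusted p = 0.0104). Nfkbia was lower with LPA in the Slc1a2/Gpc5 cluster (-0.80, adjusted p = 0.000493), and its effect was not shown to differ among the clusters (adjusted p = 0.838), nor was that of Socs3 (adjusted p = 0.515) or Jund (adjusted p = 0.602). The list had 12 genes tested in the Gfap/C4b cluster, 2 called higher and 1 lower, against 19 tested with 2 lower in the Slc1a2/Gpc5 cluster and 15 tested with 1 lower in the Slc6a11 cluster. In the same order, 8.99%, 2.39% and 0.377% of all genes tested in these clusters were called in either direction.

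In ependymal cells 10 genes of that list were tested, and 2 rose and 1 fell, beside 4.28% of all genes called, with a median of 0.31 against -0.01 over all genes. Ccn1 stood at 41.7, 22.8 and 79.2 CPM with LPA and 12.2, 6.46 and 19.6 CPM with vehicle (1.91 ± 0.425, SE, adjusted p = 0.00526). Dusp1, a phosphatase that switches off MAP kinases, stood at 30.8, 37.1 and 53.8 CPM against 13.6, 16.2 and 5.59 CPM (1.73 ± 0.365, SE, adjusted p = 0.0031). Ccn1 and Dusp1 passed the count filter here through the LPA libraries. Jund fell by 1.24 on the log2 scale (adjusted p = 0.00285). In oligodendrocytes Per1, a clock gene also induced by glucocorticoids, fell from 41.0, 40.2 and 38.4 CPM to 22.2, 24.8 and 22.9 CPM (-0.77 ± 0.0837, SE, adjusted p = 2.74e-05), the 1 gene called of 27, beside 5.02% of all genes. In the other types edgeR and DESeq2 called none. There, 35 genes of the list were tested in neurons, 24 in meningeal fibroblasts, 21 in endothelial cells, 14 in oligodendrocyte precursors and 12 in microglia, with 2, 3, 2, 2 and 2 of them at an unadjusted p under 0.05, and 9, 6 and 2 in mural cells, choroid plexus epithelium and neuroblasts, with 2, 0 and 0 of them.

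Upstream of the group, 28 genes for kinases and transcription factors (MAP kinase, SRF, MEF2 and CREB pathways) were listed. In astrocytes all 28 were tested, and Rps6ka5 (0.39), Rps6ka2 (0.50) and Mef2c (0.33, log2 fold changes, adjusted p = 0.00304, 0.00124 and 0.0114) rose and none fell, with a median of 0.09 and 8.14% of all genes called. Rps6ka5 and Rps6ka2 encode kinases downstream of ERK. Rps6ka5 stood at 113, 114 and 125 CPM against 82.7, 93.9 and 93.3 CPM. In the Gfap/C4b cluster, where Fos rose most, edgeR called none of the 26 tested, 2 of which had an unadjusted p under 0.05, and DESeq2 called none. In microglia, where 9.04% of all genes were called, Crtc3 was higher (0.63, adjusted p = 0.0382) and Rps6ka1 (-0.54, adjusted p = 0.0149) and Mef2a (-0.36, adjusted p = 0.0467) were lower, and in ependymal cells, with 4.28% of all genes called, Rps6ka5 was lower (-0.53, adjusted p = 0.0184). DESeq2 called 3 genes of this list in astrocytes, 1 in microglia and none in ependymal cells. In the other types edgeR and DESeq2 called none of the 14 to 28 genes tested, of which 0 to 3 a type had an unadjusted p under 0.05.

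Values that moved with the result in astrocytes belong beside it. Of 10 heat shock genes, which mark protein stress, tested in astrocytes none rose and 4 fell (Hspa8, Hspa5, Hspe1 and Hsp90ab1). Of all 14635 genes tested in astrocytes, 732 were called higher and 459 lower. In the Gfap/C4b cluster 1 of 9 heat shock genes tested fell, beside 8.99% of all its genes called in either direction. The 13 on the list summed there to 492 to 524 CPM with LPA and 647 to 816 CPM with vehicle. Mitochondrial RNAs, which are not nuclear, were lower with LPA in astrocytes (12 of 12 tested, 311 to 661 CPM against 973 to 1451 CPM summed) and in the Gfap/C4b cluster (9 of 10, 312 to 684 CPM against 1131 to 1933 CPM). Their summed level was lower with LPA, without overlap, in 11 of the 12 types, among them oligodendrocytes (171 to 389 CPM against 496 to 741 CPM) and microglia (311 to 632 CPM against 1350 to 2139 CPM), where no member was called. Hemoglobin genes summed to 31.9 to 43.5 CPM against 47.3 to 83.0 CPM in astrocytes, with 3 of 5 lower. The part of these in the result was not tested.

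Among markers of other types, those of ependymal cells were higher with LPA in astrocytes, 8 of 12 tested (192 to 197 CPM against 97.7 to 116 CPM summed over 14, none at 0), and those of neurons were at 4970 to 5406 CPM against 4436 to 4754 CPM, 1 of 15 higher. In the Gfap/C4b cluster, where the rise of Fos lay, both overlapped between groups (485 to 594 CPM against 421 to 639 CPM, and 6080 to 6474 CPM against 6055 to 6864 CPM). In its finer cluster the ependymal markers were again higher with LPA, at 209 to 259 CPM against 121 to 150 CPM. The part of these markers in the result was not tested. Markers of oligodendrocytes were lower with LPA in astrocytes (1147 to 1351 CPM against 1356 to 1862 CPM, 5 of 14 lower), as were those of meningeal fibroblasts (239 to 282 CPM against 321 to 329 CPM, 5 of 15). Beside these counts, 732 of all 14635 genes tested in astrocytes were called higher and 459 lower. In ependymal cells, beside their Fos values, markers of choroid plexus were lower (5 of 6) and mitochondrial RNAs were lower (824 to 1043 CPM against 2790 to 4149 CPM). Of all 10223 genes tested in ependymal cells, 205 were called lower.

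Among the genes with levels most like those of the group across types were Pde2a (Pearson r = 0.727), Rasgrp2 (0.629), Prkce (0.624), Fam131a (0.623), A230006K03Rik (0.621), Ssbp4 (0.61) and Adgrl2 (0.59). The likeness was taken between log2(CPM + 1) and the mean z-score of the 10 members, over 72 sums of 12 types in 6 libraries and 6746 genes, and sums of 1 library share its depth. Pde2a, a phosphodiesterase of cyclic nucleotides, was highest in neurons (237 CPM) and lowest in oligodendrocytes (11.4 CPM).

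Without the limit on mitochondrial UMIs, meningeal fibroblasts would have shown 3 members as higher with LPA, Fos (1.23), Fosb (1.33) and Ier2 (1.33, log2 fold changes, adjusted p = 0.00389, 0.0268 and 0.0107). Of the entries of the shared barcodes, 57.4% were named meningeal fibroblasts in that fit. The 941 meningeal nuclei above the limit held 318 Fos UMIs and 150 Fosb UMIs, and the 4332 at or below it held 47 and 5. With no limit but with the shared barcodes left out, none of the 5 members tested in meningeal fibroblasts was called, and Fos and Fosb no longer passed the count filter. Fos and Junb in astrocytes were called in this fit too, at 1.77 (adjusted p = 1.9e-05) and 1.65 (adjusted p = 0.000135), and Nr4a1 was not.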

How the data were processed

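Single-nucleus libraries of NeuN-negative brain nuclei were deposited by the authors as raw UMI counts per gene and barcode, made with Cell Ranger 4.0.0 against an mm10 pre-mRNA reference, so that intronic reads were counted. The counts were used as deposited, with their own group labels. Kept nuclei had 300 or more genes, no more than 1% of UMIs from mitochondrial genes and a total no higher than 1.5 interquartile ranges above the upper quartile. Clustering used 3000 variable genes, 40 principal components, 30 neighbors and Leiden resolution 1 (leidenalg 0.10.2), without the 10 genes and all listed genes. Clusters took the name of the best-scoring marker list if at least 3 markers were detected, limits that were set after the clusters were seen, so a difference from the study may come from the rebuilt names. Scrublet doublet calls (12.7% to 15.4% of nuclei a library) set which clusters stayed unnamed. UMIs were summed per library and type with at least 10 nuclei in each library, filtered with filterByExpr, scaled by TMM and tested with edgeR 4.0.16 (quasi-likelihood, R 4.3.3); DESeq2 1.42.0 was an alternative. The scripts were tested on simulated data. The precision of a level is set by the UMIs summed for its library and type. These were a part of the 36640491 to 51310074 UMIs in the kept nuclei of a library, so levels in types with few nuclei are less precise. The members and gene lists were chosen with earlier results of these data known. Named genes were the 10 members, the other immediate-early genes called in at least 1 type (at most 20), up to 5 upstream and 5 heat shock genes called, and the 8 genes of most similar level, 1 of which is not reported here.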

Additional observations from a re-analysis of the deposited data

Results flagged for a closer look

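The LPA effect on Junb differed among the 12 cell types (adjusted p = 0.000263, edgeR F test over all type by LPA terms). The log2 fold change was 1.67 in astrocytes, 0.06 in neurons and -1.08 in microglia, where 1 vehicle library held 0 Junb UMIs. It was the 1 member of 8 tested to pass, and it passed with each library left out in turn.

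The LPA effect on Fos differed among the 3 large astrocyte clusters (adjusted p = 3.74e-06, the same kind of test). The log2 fold change was 3.02 in the cluster led by Gfap and C4b and 0.18 in that led by Slc1a2 and Gpc5. In the fit of the Gfap/C4b cluster, Fos passed the count filter through the LPA libraries. These clusters were compared after the result over all astrocytes was known.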

How the results depend on the processing

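Over the alternatives tried, Fos and Junb stayed called as higher in astrocytes in each fit of all astrocytes. With 1 library left out, their log2 fold changes ran from 1.71 to 2.15 and from 1.51 to 1.87, and 2 to 3 members were called higher in astrocytes. Nr4a1 lost its call with DESeq2 (adjusted p = 0.0841), without the mitochondrial limit (0.0545), with Leiden resolution 2 (0.0747) and without each library but vehicle 1 and 2. Of 47 tested pairs of member and type, 24 changed sign in at least 1 alternative, none of the 3 called ones. Comparing clusters and leaving out shared barcodes were chosen after seeing the data. Fitted alone, the Slc1a2/Gpc5 and Slc6a11 clusters gave 0 and 0 members higher, but Fos and Junb were not tested in the Slc6a11 cluster.

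The labels number the replicates and state no pairing between the groups. Deviations of same-numbered libraries correlated at 0.285, 0.484 and -0.169 over 14298 genes. Those of differently numbered libraries correlated at -0.559 to 0.437. Whether the numbers pair the libraries was not tested. With the replicate block Nr4a1 in astrocytes had an adjusted p of 0.053, and the block moved the genes called from 1 to 0 in macrophages, 5 to 0 in endothelial cells, 14 to 40 in mural cells, 171 to 95 in meningeal fibroblasts, 438 to 291 in ependymal cells and 11 to 68 in neuroblasts.

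Counts of all genes called moved more. Without a filter on low counts they were 73 in oligodendrocyte precursors (27 as reported), 22 in macrophages, 41 in endothelial cells, 53 in mural cells, 348 in meningeal fibroblasts, 50 in choroid plexus epithelium (17), 40 in neurons (12) and 97 in neuroblasts, and 2 members (Junb and Fos) differed among types. DESeq2 called 8 in precursors, 445 in microglia (837), 4 in mural cells, 181 in ependymal cells, 6 in choroid plexus epithelium, 21 in neurons and 26 in neuroblasts. Resolution 2 gave 283 in precursors, 350 in oligodendrocytes (725) and 325 in neuroblasts. Without the mitochondrial limit the counts were 0 in macrophages, 10 in endothelial cells, 9 in mural cells, 361 in meningeal fibroblasts, 10 in choroid plexus epithelium and 67 in neuroblasts, 3 members were called in meningeal fibroblasts, 2 (Junb and Ier2) differed among types, and the summed level differed by -45.9 CPM in endothelial cells and 82.0 CPM in meningeal fibroblasts. With shared barcodes left out too they were 0 in macrophages, 11 in endothelial cells, 109 in meningeal fibroblasts and 65 in neuroblasts. Shared barcodes left out alone gave 3 in endothelial cells, as did library size without TMM. Without Scrublet doublets they were 8 in endothelial cells, 8 in choroid plexus epithelium and 31 in neuroblasts. The cause was not tested.

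With 1 library left out, genes called ran from 800 to 1193 in astrocytes, 8 to 67 in precursors, 380 to 874 in oligodendrocytes, 452 to 782 in microglia, 0 to 4 in macrophages, 0 to 13 in endothelial cells, 7 to 35 in mural cells, 85 to 161 in meningeal fibroblasts, 264 to 442 in ependymal cells, 2 to 37 in choroid plexus epithelium, 1 to 33 in neurons and 0 to 120 in neuroblasts. From 0 to 1 member was lower in microglia. Differences of the summed level ran from 16.7 to 28.5 CPM in astrocytes, -3.58 to 7.23 in precursors, -6.50 to 1.35 in oligodendrocytes, -65.8 to -21.8 in microglia, 15.5 to 62.2 in macrophages, -7.39 to 47.0 in endothelial cells, -6.64 to 26.3 in mural cells, -4.73 to 10.7 in meningeal fibroblasts, 41.3 to 52.6 in ependymal cells, -8.08 to 7.62 in choroid plexus epithelium, -2.92 to 17.0 in neurons and -62.1 to -12.6 in neuroblasts. Macrophages, choroid plexus epithelium and neuroblasts held too few UMIs for any member to be tested.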

Other observations

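Between the 235 barcodes found in all 6 libraries and the barcodes of 1 library lay smaller sets, 18 barcodes in 5 libraries, 20 in 4, 6 in 3 and 429 in 2. The summed level of the 10 genes was 1695 CPM in the barcodes of 5 libraries, 2781 CPM in those of 4, 1395 CPM in those of 3 and 101 CPM in those of 2. Fos stood at 267, 764, 465 and 9.06 CPM in the same sets.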
